A study of Mus musculus with 6 samples.

Results

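The genes described here mark macrophages and monocytes of the fetal lung. The set holds 35 genes, found by symbol among the 55335 rows of a table of read counts per gene from whole mouse lungs at embryonic day 18. It was divided into 11 genes typical of tissue macrophages, 4 typical of monocytes and 20 that myeloid cells share, and all 35 passed the filter on low counts that left 17075 genes for testing. Each of the 6 lungs came from a separate embryo and gave 1 library. Tests of 3 against 3 libraries measure the spread between embryos. The 3 controls carried Prx1Cre with 1 floxed and 1 intact Gata4 allele (Gata4 F/+). The 3 embryos labelled Gata4 CKO carried Prx1Cre with 1 floxed and 1 deleted allele (Gata4 F/D). Every embryo thus carried Cre and at least 1 floxed allele, and there was no group without Cre. All cells of a Gata4 CKO embryo carry the deleted allele. Prx1Cre acts in the lateral plate mesoderm, and which lung cells it reaches was not tested. Per the submitters' design text, Gata4 is thereby lost in the forming diaphragm, the diaphragm is defective and the lungs are small.

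Macrophages enter the lung before birth from the yolk sac and the fetal liver. They depend on the receptor CSF1R and on the transcription factor PU.1, clear dying cells with scavenger and complement proteins, and give rise to alveolar macrophages around birth under the cytokine GM-CSF. Monocytes are blood-borne relatives that leave the marrow or fetal liver through the chemokine receptor CCR2, and some of them become macrophages once in the tissue.

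Total counts ranged from 15156415 to 30848948 per library. Gata4 had 84, 63 and 90 reads in controls 1, 2 and 3, against 117, 76 and 97 in the CKO-labelled libraries 1, 2 and 3 (log2 fold change 0.49, edgeR adjusted p = 0.671). Its level goes against the deletion named in the labels, and every direction given here rests on those labels. The count can include exons outside the deleted part and cells outside the target of Prx1Cre, so it checks the labels only weakly. The library labelled Gata4 CKO 1 stood apart, since its log2 CPM (reads scaled to the size of the library) changed by -0.19 with each doubling of transcript length, against 0.03 to 0.05 in the other 5 libraries. Control 3 lay above controls 1 and 2 for 24 of the 35 genes. The authors' column labels hold a number of unstated meaning. It is 4229 for Gata4 CKO 1 and controls 1 and 2, 4723 for Gata4 CKO 2 and 3, and 4503 for control 3. Fits without that number as a term take libraries that share it as independent.

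The defining markers given for these cells are genes of the set and were read in every library. That does not check which cells the other genes of the set come from. Csf1r, the receptor that keeps macrophages alive, had between 39.7 and 64.2 CPM, and Adgre1, the F4/80 antigen, had between 9.12 and 16.9 CPM. C1qa, a chain of complement C1q, had between 21.2 and 47.1 CPM, and Ccr2 had between 11.9 and 22.2 CPM. Per length of exon, the levels of the set spread widely. In controls Lyz2, the lysozyme of myeloid cells, was at 1680 ± 1232 TPM (reads scaled to exon length and library size), Tyrobp at 94.0 ± 29.1 TPM and C1qa at 78.4 ± 6.95 TPM (SD, n = 3). At the other end stood Folr2 at 1.69 ± 0.83 TPM and Ms4a7 at 1.19 ± 0.16 TPM (SD, n = 3). Lyz2 is also expressed by alveolar type 2 cells of the mouse, so its level is not that of myeloid cells alone.

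Promoters of the set were searched for the core of the PU.1 site, GAGGAAG, on both strands, in windows from 250 bases before to 50 bases after the gene start. RefSeq windows on GRCm38.p6 were at hand for 27 of the 35 genes. The letters occurred in the windows of 11 of the 27, or 40.7%, and in those of 15.4% of all 27025 genes. They were found for 3 of 8 tissue macrophage genes, 2 of 4 monocyte genes and 6 of 15 shared genes. One gene of each class is shown, from 100 bases before to 50 bases after its start, with the motif or its reverse complement in capitals. The windows are Mrc1 at chr2:14229314-14229463 on the plus strand, F13a1 at chr13:37050195-37050344 on the minus strand and Fcgr3 at chr1:171059354-171059503 on the minus strand. The Mrc1 match shown begins 36 bases before the start, and a further one lies 168 bases before it, outside the stretch. Of the other matches, those of F13a1 begin 66 bases before and 17 bases after it, and that of Fcgr3 begins 7 bases before it. A match describes the letters and is not evidence of a bound factor.
Mrc1: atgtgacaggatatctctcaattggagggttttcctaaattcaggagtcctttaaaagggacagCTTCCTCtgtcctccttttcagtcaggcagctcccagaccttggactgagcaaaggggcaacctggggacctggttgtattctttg
F13a1: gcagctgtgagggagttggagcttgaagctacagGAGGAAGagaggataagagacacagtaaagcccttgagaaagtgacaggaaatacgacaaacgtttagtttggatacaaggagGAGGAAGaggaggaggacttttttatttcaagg
Fcgr3: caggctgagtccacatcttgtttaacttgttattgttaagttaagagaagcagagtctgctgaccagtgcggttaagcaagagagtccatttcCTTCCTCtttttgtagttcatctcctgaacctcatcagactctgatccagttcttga

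The comparison asks whether whole lungs labelled Gata4 CKO carry more or less macrophage and monocyte RNA than control lungs. In a whole lung, more cells of a type and more RNA per cell cannot be told apart. Values of 31 of the 35 genes were positive (higher in Gata4 CKO), against 51.5% of all tested genes, and the median log2 fold change was 0.53 against 0.01 over all genes. None of the 35 had an adjusted p under 0.05 in edgeR's quasi-likelihood test, where 0% of all genes did. At an unadjusted p under 0.05 there were 10, all higher, against 3.77% of all genes. For 11 genes every library labelled Gata4 CKO lay above every control, which held for 7.69% of all genes. No gene of the set lay below every control, which held for 9.08% of all genes. DESeq2 called 3 of the 35, Adgre1, Ms4a7 and Fcgr3, all higher, where it called 0.738% of all genes. Left without Gata4 CKO 1, 31 of 35 values were positive (49.7% of all genes) with a median of 0.40, but the column-label number and the group cannot be told apart in what remains. Left without control 3, 30 were positive (51.8% of all genes) with a median of 0.72. With a trend in transcript length and GC content removed, 32 were positive (52.5% of all genes) with a median of 0.46.

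**Figure D1:**
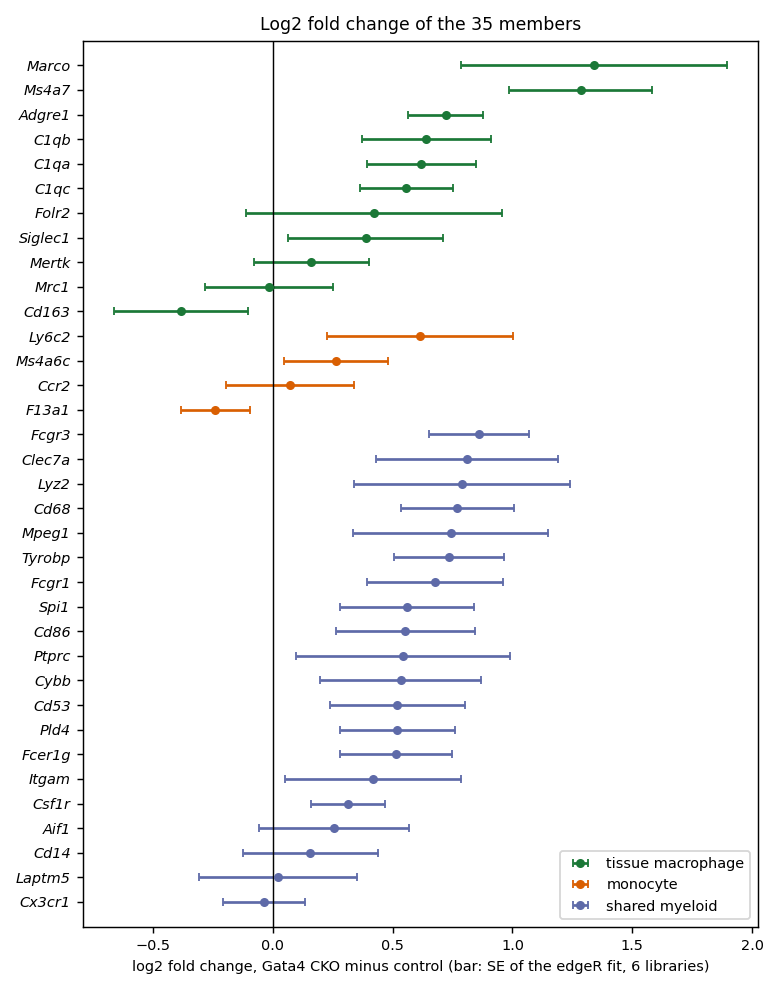
Log2 fold change of each of the 35 genes (x axis, libraries labelled Gata4 CKO minus controls) with its SE from the edgeR fit over 6 libraries, coloured by class. The values run from -0.38 for Cd163 to 1.34 for Marco, and 31 of 35 lie to the right of 0.

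Tissue macrophage genes split into some that stood higher in every library labelled Gata4 CKO and others that did not. Of the 11 genes 9 had positive values, and the median log2 fold change was 0.56. At an unadjusted edgeR p under 0.05 there were 6, all higher, against 3.77% of all genes. For 5 every Gata4 CKO library lay above every control, against 7.69% of all genes. Adgre1 (ENSMUSG00000004730, chromosome 17, 57358691 to 57483527, plus strand, GRCm38), an adhesion receptor and the classic mouse macrophage antigen, was at 10.4, 9.12 and 9.53 CPM in controls and 15.7, 16.9 and 15.4 CPM in Gata4 CKO 1, 2 and 3. The groups lay far apart relative to the spread within each. Control libraries averaged 9.68 ± 0.66 CPM and Gata4 CKO libraries 15.98 ± 0.79 CPM (SD, n = 3). The log2 fold change of 0.72 ± 0.16 (SE) passed the threshold in DESeq2 (adjusted p = 0.0321) and not in edgeR (adjusted p = 0.529). Over all 25 settings tried it ranged only from 0.66 to 0.79, whichever library was left out.

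Ms4a7, a four-pass membrane protein of tissue macrophages and microglia, was at 1.68, 1.30 and 1.54 CPM in controls and 3.66, 4.77 and 2.67 CPM in Gata4 CKO 1, 2 and 3. All 3 Gata4 CKO values were above all controls, at a low level of 27 to 81 reads per library. This gave a log2 fold change of 1.28 ± 0.30 (SE, edgeR adjusted p = 0.529, DESeq2 adjusted p = 0.0470). Marco, a scavenger receptor that binds bacteria and marks alveolar macrophages, was at 1.45, 2.25 and 7.86 CPM in controls and 8.70, 10.9 and 10.1 CPM in Gata4 CKO. Control 3 thus stood near the Gata4 CKO libraries and apart from the other controls. The log2 fold change of 1.34 ± 0.55 (SE, edgeR adjusted p = 0.560) was the highest of the 35 and was 2.42 without control 3.

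The 3 chains of C1q are made together, lie next to each other on chromosome 4 between 136880129 and 136898803, and form the molecule that tags dying cells for uptake. C1qa was at 25.1, 21.2 and 23.2 CPM in controls and 47.1, 34.02 and 25.7 CPM in Gata4 CKO 1, 2 and 3. C1qb was at 15.7, 12.8 and 17.5 CPM in controls and 33.9, 20.4 and 17.4 CPM in Gata4 CKO, and C1qc at 20.3, 18.7 and 20.5 against 37.4, 25.1 and 25.1 CPM. Gata4 CKO 1 was the highest library for each chain, and Gata4 CKO 3 was close to the controls for C1qa and C1qb. The log2 fold changes were 0.62, 0.64 and 0.56 for C1qa, C1qb and C1qc (edgeR adjusted p = 0.541, 0.566 and 0.529), and 0.36, 0.30 and 0.34 without Gata4 CKO 1.

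For the other 5 macrophage receptors the groups overlapped. Mrc1, the mannose receptor (CD206), was at 52.9, 47.8 and 49.4 CPM in controls and 29.0, 62.0 and 57.6 CPM in Gata4 CKO 1, 2 and 3. Gata4 CKO 1 was the lowest library and the other Gata4 CKO libraries the highest, giving a log2 fold change of -0.02 ± 0.27 (SE, edgeR adjusted p = 0.990), or 0.26 without Gata4 CKO 1. With the column-label number as a term, where Gata4 CKO 1 is set against controls 1 and 2 alone, it was -0.80. Removing the length and GC trend as well gave -0.20. Mrc1 is also read in lymphatic and other endothelium, and 6 of 8 genes listed for those cells had negative values. Whether other lung cells add to these 8 was not tested. Lyve1 had 0.17, Prox1 -0.18, Pdpn -0.39, Stab1 -0.13 and Stab2 -0.47, and their part in the Mrc1 value was not tested. Cd163, the haemoglobin scavenger receptor, was at 7.56, 6.33 and 4.49 CPM in controls and 3.57, 5.76 and 4.79 CPM in Gata4 CKO, with overlapping groups and a log2 fold change of -0.38 ± 0.28 (SE, edgeR adjusted p = 0.730). Mertk, a kinase receptor for the uptake of dying cells, was at 78.9, 76.5 and 106.1 CPM in controls and 66.5, 112.3 and 113.7 CPM in Gata4 CKO. Its log2 fold change was 0.16, and 0.38 without Gata4 CKO 1. Siglec1, a sialic acid receptor, had 0.39, and Folr2, a folate receptor with 10 to 32 reads per library, had 0.42, both with overlapping groups. Without Gata4 CKO 1 Folr2 had -0.08.

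**Figure D2:**
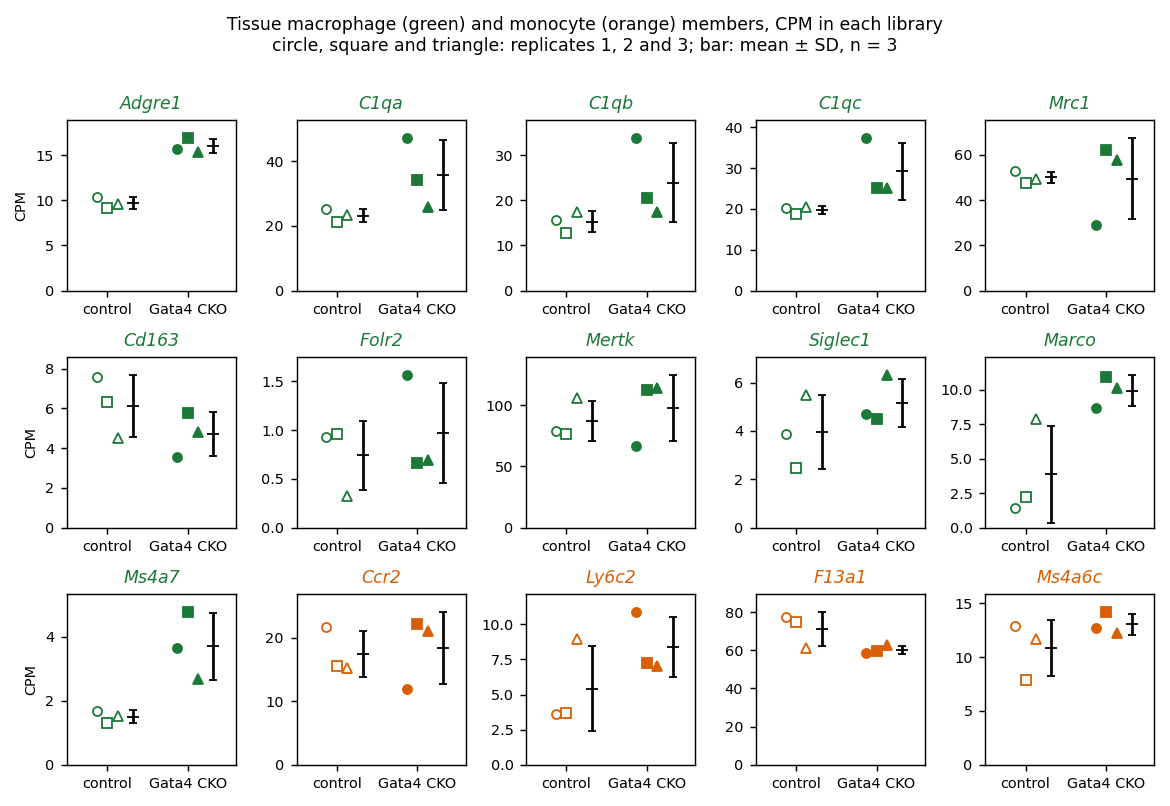
CPM (y axis, from 0) of the 11 tissue macrophage genes in green and the 4 monocyte genes in orange, in each control (open) and each library labelled Gata4 CKO (filled), with the mean ± SD of 3 libraries. Adgre1 and Ms4a7 separate the groups, and the C1q chains are highest in Gata4 CKO 1 with overlap for C1qb. No monocyte gene separates the groups, as is so for 14212 of all 17075 tested genes.

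Monocyte genes were split between higher and lower values. Of the 4 genes 3 had positive values, and the median log2 fold change was 0.17. None had an unadjusted edgeR p under 0.05, which 1482 of all 17075 tested genes had. The groups overlapped for all 4, as for 14212 of all 17075 tested genes, so the overlap does not set monocyte genes apart. Ccr2, the receptor for monocyte chemoattractants, was at 21.7, 15.6 and 15.2 CPM in controls and 11.9, 22.2 and 21.1 CPM in Gata4 CKO 1, 2 and 3. The lowest value was that of Gata4 CKO 1 and the other Gata4 CKO libraries stood next to control 1. The fit gave a log2 fold change of 0.07 ± 0.27 (SE, edgeR adjusted p = 0.955), and 0.31 without Gata4 CKO 1. With the column-label number as a term, where Gata4 CKO 1 is set against controls 1 and 2 alone, Ccr2 was lower at -0.65. With the length and GC trend removed as well, the value was 0.19. F13a1, the coagulation factor XIII A chain of monocytes and some macrophages, was at 77.3, 74.9 and 61.0 CPM in controls and 58.4, 59.6 and 62.7 CPM in Gata4 CKO, with a log2 fold change of -0.24 ± 0.14 (SE, edgeR adjusted p = 0.681). Control 3 lay within the range of the Gata4 CKO libraries. Ms4a6c, a four-pass membrane protein of monocytes, had 0.26 ± 0.22 (SE, edgeR adjusted p = 0.760).

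Ly6c2, the surface antigen of inflammatory monocytes, was at 3.64, 3.69 and 8.94 CPM in controls and 10.8, 7.21 and 7.03 CPM in Gata4 CKO. Control 3 lay among the Gata4 CKO libraries, giving a log2 fold change of 0.61 ± 0.39 (SE, edgeR adjusted p = 0.690) and 1.19 without control 3. This count is uncertain, because Ly6c2 has a near copy on chromosome 15, Ly6c1, which endothelial cells express. The coding sequences of both are 396 bases long on GRCm38 and differ at 9 positions (97.7% identity). Of the 748 words of 75 bases in the Ly6c2 transcript 164, or 21.9%, also occur in a Ly6c1 transcript, so reads from those stretches fit both genes. Ly6c1 was at 18.1, 22.6 and 42.1 CPM in controls and 53.1, 43.5 and 38.6 CPM in Gata4 CKO, the same order of libraries as Ly6c2 in that controls 1 and 2 were lowest and Gata4 CKO 1 highest. Its part in the Ly6c2 count was not tested. The first 90 coding bases, which hold 6 of the 9 differences, are shown with those bases in capitals, from the minus strand at chr15:75108543-75111667 for Ly6c2 and at chr15:75045402-75048511 for Ly6c1, the spans of the whole coding parts.
Ly6c2: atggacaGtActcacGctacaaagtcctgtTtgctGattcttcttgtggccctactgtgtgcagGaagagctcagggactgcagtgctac
Ly6c1: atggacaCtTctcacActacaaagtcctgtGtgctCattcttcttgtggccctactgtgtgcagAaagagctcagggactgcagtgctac

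Within-library ratios set macrophage genes against monocyte genes without any scaling between libraries. The log2 ratio of the summed CPM of the 11 macrophage genes to that of the 4 monocyte genes was 0.92, 0.97 and 1.34 in controls and 1.42, 1.53 and 1.44 in Gata4 CKO 1, 2 and 3. Every Gata4 CKO library was above every control, with control 3 just below them, and the mean difference was 0.39. Gata4 CKO 2 and 3 alone also lay above every control. These sums are led by Mrc1, Mertk and F13a1. In controls F13a1 averaged 71.1 CPM and the sum of the monocyte genes 104.8 CPM, so this ratio leans on F13a1. With Ccr2 alone below the 11 macrophage genes, the log2 ratio was 3.33, 3.68 and 4.01 in controls. It was 4.40, 3.75 and 3.73 in Gata4 CKO 1, 2 and 3, so the groups overlapped. For Adgre1 over Ccr2 the log2 ratio was -1.06, -0.77 and -0.68 in controls and 0.40, -0.39 and -0.46 in Gata4 CKO, without overlap. For the 3 C1q chains over Ccr2 it was 1.49, 1.76 and 2.01 in controls and 3.31, 1.84 and 1.69 in Gata4 CKO, with only Gata4 CKO 1 outside the range of the controls. Adgre1 over Ly6c2 gave 1.51, 1.30 and 0.09 in controls and 0.53, 1.23 and 1.13 in Gata4 CKO, with no separation. The median log2 fold change of the macrophage genes exceeded that of the monocyte genes by 0.39 over all libraries. Without Gata4 CKO 1 it exceeded it by 0.07, so this difference rested on that library where the length and GC trend was kept. With that trend removed, the macrophage and monocyte medians were 0.45 and 0.21 over all libraries, and 0.38 and 0.14 without Gata4 CKO 1. Within each library, the macrophage median minus the monocyte median was taken on log2 CPM relative to the control mean of each gene. It was -0.12, 0.16 and 0.06 in controls and 0.92, -0.0051 and 0.09 in Gata4 CKO 1, 2 and 3. By this score Gata4 CKO 2 and 3 lay within the range of the controls, and the pooled SD within groups was 0.37. No p is given for these scores, because the genes were chosen with results of these libraries known.

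**Figure D3:**
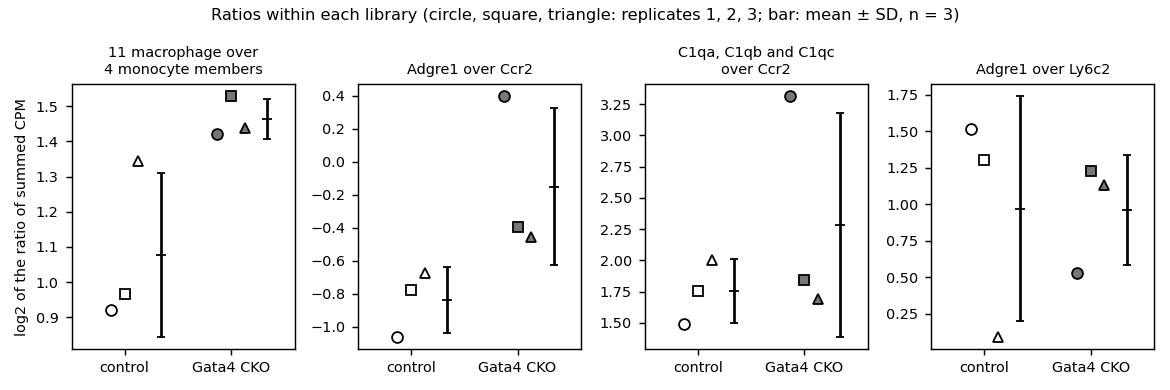
Log2 ratios of summed CPM within each library (y axis, separate scale in each panel) for controls (open) and libraries labelled Gata4 CKO (filled), with the mean ± SD of 3 libraries. The macrophage to monocyte ratio and the Adgre1 to Ccr2 ratio separate the groups, while Adgre1 over Ly6c2 does not.

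Genes shared by myeloid cells had positive values in 19 of 20 cases, with a median log2 fold change of 0.54. At an unadjusted edgeR p under 0.05 there were 4, all higher, against 3.77% of all genes. For 6 every Gata4 CKO library lay above every control, against 7.69% of all genes. Receptors for immunoglobulin and their signalling adapters come first. Fcgr3, an Fc receptor for IgG, was at 11.3, 10.2 and 16.2 CPM in controls and 24.4, 23.4 and 21.0 CPM in Gata4 CKO 1, 2 and 3. All Gata4 CKO libraries were above control 3, the highest control, and the log2 fold change was 0.86 ± 0.21 (SE), called by DESeq2 (adjusted p = 0.0466) and not by edgeR (adjusted p = 0.529). Tyrobp (DAP12), the adapter that carries signals of many myeloid receptors, was at 16.2, 13.2 and 24.3 CPM in controls and 29.3, 30.2 and 29.9 CPM in Gata4 CKO. The Gata4 CKO libraries were almost equal, with a log2 fold change of 0.74 ± 0.23 over controls (SE, edgeR adjusted p = 0.529). Fcer1g, the other adapter of this kind, had 0.51, and Fcgr1, the high-affinity IgG receptor, had 0.68, both with control 3 inside the range of the Gata4 CKO libraries. Related Fc receptor genes outside the set had positive values too, with 0.50 for Fcgr2b and 1.14 for Fcgr4, a gene with 0.56 to 1.92 CPM.

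The regulators of the lineage both had groups that did not overlap. Csf1r was at 48.5, 39.7 and 49.5 CPM in controls and 64.2, 51.7 and 55.5 CPM in Gata4 CKO, with all Gata4 CKO libraries above all controls by a small margin and a log2 fold change of 0.32 ± 0.15 (SE, edgeR adjusted p = 0.615). Adgre1 thus stood higher relative to Csf1r in every Gata4 CKO library, at log2 ratios of -2.03, -1.61 and -1.85 against -2.22, -2.12 and -2.38 in controls. Spi1, which encodes PU.1, was at 8.91, 5.66 and 12.6 CPM in controls and 14.2, 13.1 and 12.9 CPM in Gata4 CKO, a log2 fold change of 0.56 ± 0.28 (SE, edgeR adjusted p = 0.620). Control 3 was only just below Gata4 CKO 3.

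Genes of the lysosome and of microbial killing differed in how control 3 stood. Lyz2 was at 381.3, 339.2 and 1177 CPM in controls and 1102, 1097 and 1087 CPM in Gata4 CKO, so control 3 was above all 3 Gata4 CKO libraries, which were nearly equal. This gave a log2 fold change of 0.79 ± 0.45 (SE, edgeR adjusted p = 0.669) and 1.603 without control 3. Sftpc, the surfactant gene of alveolar type 2 cells, which also express Lyz2, was at 6526, 6037 and 9729 CPM in controls and 16540, 11130 and 9928 CPM in Gata4 CKO, and its part in the Lyz2 value was not tested. Cd68, a lysosomal membrane protein of macrophages, was at 9.70, 7.48 and 12.9 CPM in controls and 20.0, 15.4 and 16.1 CPM in Gata4 CKO, with groups apart and a log2 fold change of 0.77 ± 0.23 (SE, edgeR adjusted p = 0.529). Pld4, an endosomal nuclease, had 0.52 and Cybb, the catalytic subunit of the phagocyte oxidase, had 0.53. Mpeg1, the pore-forming perforin-2, was at 53.1, 35.1 and 84.7 CPM in controls and 49.8, 114.0 and 125.8 CPM in Gata4 CKO. Its log2 fold change was 0.74 over all libraries, 1.06 without Gata4 CKO 1 and 1.13 without control 3.

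Sensors, adhesion molecules and pan-leukocyte genes had log2 fold changes from -0.04 to 0.81. Clec7a, the fungal glucan receptor dectin-1, had a log2 fold change of 0.81 with Gata4 CKO 1 within the range of the controls, and 1.06 without that library. Cd14, the co-receptor for bacterial lipopolysaccharide, had 0.16, Itgam (CD11b) 0.42, Aif1 (IBA1) 0.25 and the co-stimulatory ligand Cd86 0.55. Of these only Cd86 had groups that did not overlap, at 2.24 to 2.54 CPM in controls and 2.71 to 4.83 CPM in Gata4 CKO. Cx3cr1, the fractalkine receptor of macrophages and patrolling monocytes, was at 20.6, 21.1 and 19.0 CPM in controls and 16.2, 20.6 and 22.4 CPM in Gata4 CKO, a log2 fold change of -0.04 (edgeR adjusted p = 0.967). Ptprc (CD45), the phosphatase of all leukocytes, was at 14.7, 11.1 and 24.6 CPM in controls and 10.6, 34.4 and 28.7 CPM in Gata4 CKO 1, 2 and 3. It was lowest in Gata4 CKO 1 and highest in the other Gata4 CKO libraries, and its log2 fold change was 0.54 over all libraries and 0.90 without Gata4 CKO 1. Among further leukocyte genes, Cd53, a tetraspanin, had 0.52 and Laptm5, a lysosomal protein of leukocytes, had 0.02, or 0.48 without control 3 and -0.18 without Gata4 CKO 1.

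Libraries of one group disagreed along the length of the transcript. The longest annotated transcripts of the 35 genes run from 597 to 6387 bases, with a median of 2539. Gata4 CKO 1 was above both other Gata4 CKO libraries for 11 of the 18 genes at or under that median and below both for 5. Among the 17 longer genes it was above both for 4 and below both for 9. The median of Gata4 CKO 1 minus the mean of the other Gata4 CKO libraries was 0.13 on the log2 scale for the shorter genes and -0.18 for the longer ones. At the extremes stood Folr2, with a transcript of 1204 bases and a difference of 1.21 on few reads, and Ptprc, with 5740 bases and -1.57. C1qb, with 1088 bases, had 0.84. All 18 shorter genes had positive log2 fold changes (median 0.56), against 13 of the 17 longer ones (median 0.39). Adgre1, with a transcript of 3238 bases, had nearly the same level in all 3 Gata4 CKO libraries. With the length and GC trend removed, the medians were 0.45 for macrophage, 0.21 for monocyte and 0.52 for shared genes, and the part of RNA quality in these differences was not tested.

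**Figure D4:**
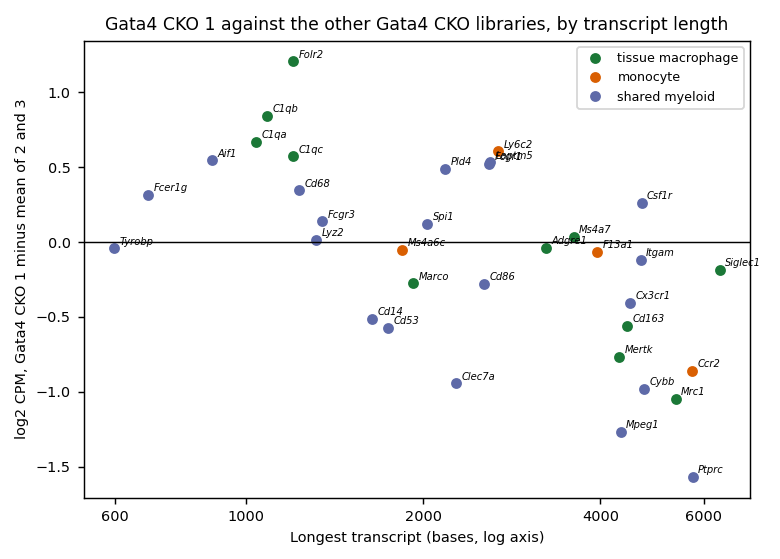
Log2 CPM of the library labelled Gata4 CKO 1 minus the mean of Gata4 CKO 2 and 3 (y axis) against the longest transcript (x axis, log scale) for the 35 genes, coloured by class. Folr2 at 1204 bases stands at 1.21, C1qb at 1088 bases at 0.84 and Ptprc at 5740 bases at -1.57, with Adgre1 close to 0.

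Calls among the 35 genes depended on the test and on which libraries were used, as did calls over all genes. Limma-voom with quality weights, which gave Gata4 CKO 1 a weight of 0.088 and control 3 a weight of 0.46, called 21 of the 35, 20 higher and 1 lower, against 25.6% of all genes. Without control 3 and Gata4 CKO 1, edgeR called 19, 18 higher and 1 lower, against 25.5% of all genes. The lower gene was F13a1 both times. DESeq2 without Gata4 CKO 1 called 7, all higher, against 10.1% of all genes, and edgeR without that library called 0, against 0.656%. In every comparison without Gata4 CKO 1 the groups share no column-label number, so that number and the group cannot be told apart there. With the column-label number as a term, where the group effect is that of Gata4 CKO 1 against controls 1 and 2 alone, edgeR called 21, 17 higher and 4 lower, against 42.8% of all genes. The lower ones were Mrc1, Cd163 at -0.96, Ccr2 and F13a1 at -0.38. With the length and GC trend removed as well it called 18, all higher, against 24.3% of all genes. Adgre1, Ms4a7 and Fcgr3 were called in 6 of 24 settings each, and no other gene of the set in more than 5.

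Genes that feed or direct these cells were read from further lists. None passed the threshold in edgeR over all 6 libraries without added terms, where 0% of all genes did. Among ligands and receptors of CSF1R and GM-CSF, 5 of 7 values were positive. Csf1, a ligand of CSF1R, had a log2 fold change of -0.09 and Il34, its other ligand, had 0.41. Csf2, which encodes GM-CSF, was at 1.45, 1.10 and 3.70 CPM in controls and 5.08, 4.63 and 3.86 CPM in Gata4 CKO. Control 3 was just under the lowest Gata4 CKO library, and the log2 fold change was 1.09 (edgeR unadjusted p = 0.0392). The GM-CSF receptor chains Csf2ra and Csf2rb had 0.22 and 0.43, Csf3r had 0.45 and Tgfb1 had -0.17. Among chemoattractants, Cxcl12, which holds CXCR4-bearing cells in tissues, was at 159.3, 166.0 and 183.8 CPM in controls and 125.2, 114.4 and 124.3 CPM in Gata4 CKO, a log2 fold change of -0.48 (edgeR unadjusted p = 0.00763) without overlap. Ccl2, the main ligand of CCR2, had at most 0.91 CPM and -0.79, Ccl12 had 0.65 and Cx3cl1, the ligand of CX3CR1, had 0.07. Ccl7 did not pass the filter and Ccl8 had 0 reads.

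Transcription factors of the lineage had positive values in 7 of 9 cases. Cebpa, which alveolar type 2 cells also express, had a log2 fold change of 0.62 (edgeR unadjusted p = 0.0138), Tfec 0.63, Mitf 0.44, Irf5 0.32, Irf8 0.30 and Runx1 0.05, with -0.07 for Maf and -0.15 for Cebpb. Genes of mature alveolar macrophages had positive values for 7 of the 8 tested, with a median of 0.58, and their summed level was 51.8, 45.7 and 121.2 CPM in controls and 79.9, 136.4 and 115.7 CPM in Gata4 CKO. Control 3 again lay within the Gata4 CKO range. Car4 led this sum in every library, at 15.7, 16.0 and 59.1 CPM in controls and 25.9, 41.3 and 36.6 CPM in Gata4 CKO. How much of the sum came from macrophages was not tested. Pparg, the transcription factor of alveolar macrophages, had 0.67 and Bhlhe41, another one, had 0.55, both with groups that did not overlap. Ear2, an eosinophil-associated ribonuclease, had 1.05, Chil3 1.17, Itgax (CD11c) 0.61, Fabp4 0.34, Car4 0.19 and Ear1 -0.19. Siglecf and Cidec did not pass the filter. Siglecf, the lectin that defines the mature cell in mice, had at most 0.54 CPM.

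Further monocyte genes outside the set had positive values in 7 of 9 cases, with a median of 0.28. Plac8 was at 6.90, 8.21 and 9.43 CPM in controls and 27.0, 12.9 and 13.01 CPM in Gata4 CKO, without overlap and with a log2 fold change of 1.11 (edgeR unadjusted p = 0.00845). Hp, haptoglobin, had 0.58, Treml4 0.94, Itgal 0.28 and Ace 0.02, with -0.23 for Nr4a1 and -0.75 for Vcan. Hp, Ace and Vcan are expressed well outside monocytes in the lung. Near copies of genes of the set had positive values in 6 of 6 cases, among them Ms4a6d with 0.69, Ms4a6b with 0.41 and Lyz1 with 0.93.

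Markers of other blood cells were read beside these values. Neutrophil markers, 7 of which were tested, had positive values in 7 of 7 cases, and their summed level ranged from 29.6 to 65.8 CPM in controls and from 51.8 to 82.6 CPM in Gata4 CKO. S100a8 had a log2 fold change of 0.59, S100a9 0.44, Retnlg 0.56, Ltf 0.41, Camp 0.95, Ngp 0.52 and Mmp8 0.18, while Elane had 0 or 1 reads, Ly6g at most 6 and Mpo at most 9. B cell markers summed to between 3.21 and 4.85 CPM in controls and between 6.11 and 8.27 CPM in Gata4 CKO, led by Cd79b (log2 fold change 0.73, edgeR unadjusted p = 0.00991). Cd79a had 0.76, while Ms4a1 did not pass the filter. None of the 6 T and NK cell markers passed it, with at most 10 reads each. Dendritic cell markers summed to at most 2.32 CPM in any library. Siglech, the only one tested, had -0.23, and Xcr1 had 0 or 1 reads. Of the mast cell and basophil markers Cpa3 had 0.32, Mcpt4 0.83 and Kit, which other lung cells express, -0.42, and Fcer1a had 0 or 1 reads. The part of neutrophils and B cells in the shared myeloid values was not tested.

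Blood and liver contributions were read in the same way. Red cell genes had positive values in 4 of 6 cases and summed to between 3019 and 4482 CPM in controls and between 3391 and 4869 CPM in Gata4 CKO. Hba-a1 had -0.03, Hba-a2 0.24, Hbb-bt 0.46, Alas2 -0.06 and Slc4a1 0.10. Liver and Kupffer cell markers summed to 25.0, 2.06 and 3.87 CPM in controls and 6.84, 2.45 and 4.29 CPM in Gata4 CKO, and control 1 was the highest through Alb. The Kupffer cell genes Clec4f and Vsig4 had at most 2 reads. Timd4, also on this list, had 5, 5 and 27 reads in controls and 8, 4 and 4 in Gata4 CKO 1, 2 and 3. Cd5l had 1, 0 and 11 reads in controls and 11, 1 and 6 in Gata4 CKO, and neither passed the filter. Of the general endothelial genes, which bear on Ly6c1, Pecam1 had -0.11 and Cdh5 -0.27. Lung markers were high in all libraries, with Nkx2-1 at 229.9 CPM or more, and had log2 fold changes of -0.07 for Nkx2-1, 0.03 for Ager, -0.52 for Foxf1, 0.74 for Scgb1a1 and 0.75 for Sftpc.

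**Figure D5:**
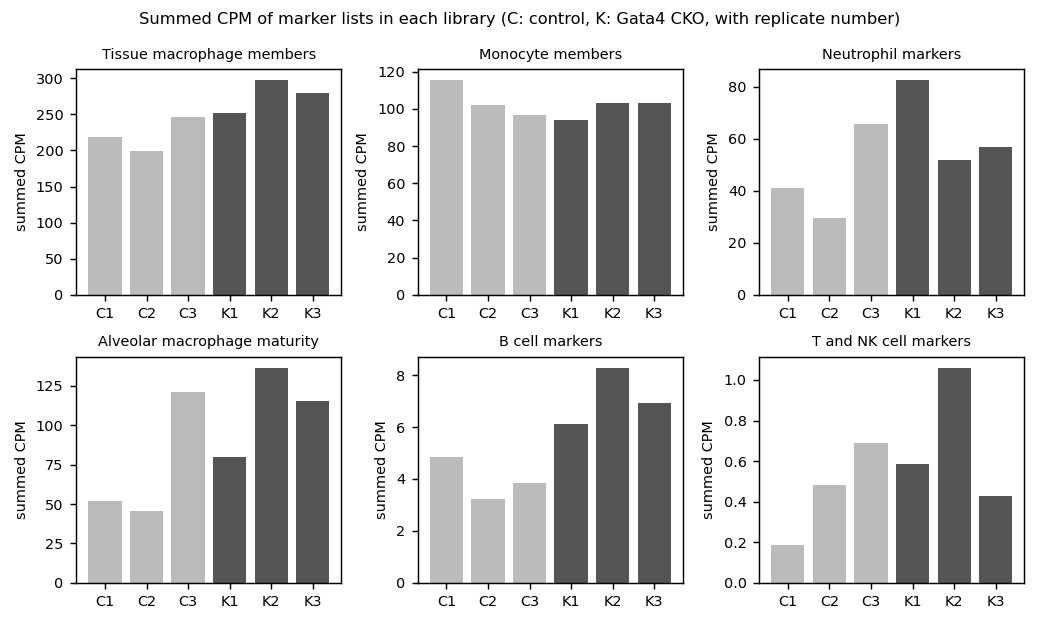
Summed CPM (bars from 0, separate scale in each panel) of 6 gene lists in controls 1 to 3 (C1 to C3) and libraries labelled Gata4 CKO 1 to 3 (K1 to K3). Tissue macrophage sums are 199.4 to 246.0 CPM in controls and 251.7 to 297.5 CPM in Gata4 CKO, monocyte sums overlap, and T and NK cell sums stay near 1 CPM or below.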

How the data were processed

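RNA of whole lungs from 6 mouse embryos at embryonic day 18 was made into stranded mRNA libraries, per the labels' protocols. The deposited table holds raw counts of reads per Ensembl gene, unscaled, per the file headers and values. Tools listed in the submitters' processing notes, without roles, are DESeq2 1.36.0, featureCounts 2.0.1 and STAR 2.7.10a, and the listed builds are mm10 and GRCm38. No source used here gives the strand setting, the annotation release or the handling of reads that match several places, so near copies and overlapping genes may share reads.

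All 35 genes were found by the table's own symbols. For other rows, 23239 of 23377 missing symbols came from a reference table by gene ID, and 139 of 140 list genes were found, in 18 lists. Low counts were removed by filterByExpr (minimum count 10, minimum total 15), and the rest were scaled by TMM and tested over all 17075 genes in edgeR 4.0.16 by its quasi-likelihood method (R 4.3.3), Gata4 CKO minus control, with 2-sided Benjamini-Hochberg adjusted p-values and a threshold of 0.05. The SE is the size of the log2 fold change divided by the square root of F. CPM uses TMM-scaled totals, and TPM divides by the merged exon length in GENCODE M21 (GRCm38), which also gave positions. With 3 libraries a group, an exact permutation test of a single value cannot go below p = 0.1, so none is given. Alternatives were other scalings and filters, DESeq2 1.42.0, limma-voom (limma 3.58.1), the replicate number as a block, the column-label number or Xist as a term, libraries left out, globin genes left out, and a spline trend (5 degrees of freedom each) in length and GC content removed. Fits that left out control 3 and Gata4 CKO 1 together, DESeq2 without Gata4 CKO 1, and 2 combinations with the length and GC trend were chosen after the data were seen.

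No libraries held identical counts. The pipeline was tested on simulated data. These held no length trend and no effect of the column-label number, so that test does not bear on either. The genes and lists were chosen with earlier results of these data known, all 35 are accounted for, and genes of other lists are named by a rule that takes every gene of a list of up to 10 genes, except a few that are counted in their lists and not reported here by name. Csf2, Cxcl12, Plac8 and Cd79b are described at more length because of their values. The planned comparison of proteins was replaced by one of coding sequences for the Ly6c pair.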

Additional observations from a re-analysis of the deposited data

How the results depend on the processing

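EdgeR called 0 genes over all 6 libraries, with 1482 at an unadjusted p under 0.05, and 0 of the 35. DESeq2 called 114 and 3, limma-voom with quality weights 4375 and 21, the column-label number as a term 7308 and 21, the fit without control 3 and Gata4 CKO 1 4389 and 19, the length and GC trend removed with the column-label number as a term 4142 and 18, and DESeq2 without Gata4 CKO 1 1605 and 7. The length and GC trend removed without Gata4 CKO 1 gave 19 genes and 0 of the 35. Leaving out 1 library gave 0 to 115 genes (115 without Gata4 CKO 1) and 0 of the 35. The replicate block gave 0 and 0. Libraries with the same replicate number had correlations of deviations from group means of 0.11, -0.30 and 0.12. Not every library correlated best with its own number, and these few correlations cannot settle whether libraries were paired. Control 1 and Gata4 CKO 1 also share the column-label number 4229. Upper quartile and other scalings shifted the median of all genes by at most 0.04.

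The macrophage minus monocyte difference of medians, 0.39, was 0.77 with the column-label number as a term and 0.77 among the libraries that share that number, 0.16 with that term and the length and GC trend removed, 0.24 with the trend removed alone, 0.17 with quality weights, 0.13 without control 3 and Gata4 CKO 1, 0.36 with the replicate block, and 0.07 to 0.59 with 1 library left out. With the trend removed and without Gata4 CKO 1, the macrophage and monocyte medians were 0.38 and 0.14. For single genes, 39 values changed sign. Mrc1 was 0.018 with upper quartile scaling, 0.18 with quality weights, 0.044 with Xist as a term, 0.060 with the length and GC trend removed, 0.024 without control 1, -0.20 to 0.26 with 1 library left out (0.26 without Gata4 CKO 1), 0.25 without control 3 and Gata4 CKO 1, 0.17 with the trend removed and without Gata4 CKO 1, and 0.25 in DESeq2 without it. Cx3cr1 in the same settings, leaving aside Xist and control 1, was 0.0024, 0.092, 0.035, 0.092, 0.046, 0.12 and 0.087, and -0.14 without Gata4 CKO 3. Folr2 was -0.28 with quality weights, -0.077 without Gata4 CKO 1 (up to 0.66 with another library left out), -0.47 without control 3 and Gata4 CKO 1, -0.14 with the trend removed and without Gata4 CKO 1, and -0.11 in DESeq2 without it. With the column-label number as a term and among the libraries sharing it, Mertk was -0.22 and -0.21, Ccr2 -0.65 and -0.63, and Ptprc -0.28 and -0.26. Ccr2 was -0.0061 and -0.021 without control 2 or 3, -0.073 and -0.041 without Gata4 CKO 2 or 3, and 0.31 without Gata4 CKO 1. Laptm5 was -0.048 with the trend removed, -0.16 and -0.17 without control 1 or 2, -0.18 without Gata4 CKO 1, 0.48 without control 3, -0.088 with the trend removed and without Gata4 CKO 1, and -0.18 in DESeq2 without it. Aif1 was -0.018 with the trend removed and without Gata4 CKO 1, and Cd14 -0.29 with the trend removed and the column-label number as a term. The cause was not tested. Genes with under 100 reads in a library, such as Folr2, Ms4a7 and Aif1, are limited by depth.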
